A study of Macaca mulatta with 6 samples.

Results

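CCGG sites at which the second pair of digest signals was unequal in haploid embryonic stem cells (ESC) of the rhesus macaque and close to equal in macaque sperm are described here. The members were chosen from the measured signals: a site had to be listed in the tables of both cell types, lie on chromosomes 1 to 20, and have a summed signal of its second pair at or above the median of each table. Its contrast, the difference of the pair's values divided by their sum, had to reach 0.5 in either direction in haploid ESC (a 3-fold ratio of the values) and stay under 0.15 in sperm (a ratio of at most 1.35). Of 1215827 shared autosomal sites, 501527 passed both minimums and 553 were members, or 0.11% of those that passed. In 426 members column 8 of the haploid ESC table held the higher value (0.0849% of the sites that passed) and in 127 column 7 did (0.0253%).

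The study compared parthenogenetic haploid ESC, which the series title names as such and which carry a maternally derived genome alone, with sperm. Each cell type had 1 library from an HpaII, 1 from a BGT_MspI and 1 from an MspI digest, 6 libraries in all, so replicate error cannot be given for any value. The labels give no animal, cell line name, passage or age, and no treatment or allele. A methylation table holds no marker gene levels, so the cell types were taken from the labels. Neither table has a header. Each holds 3 different columns of signal (columns 3, 7 and 8, with column 4 repeating column 7), as many as the cell type has libraries, but nothing names the digest of a column. The columns are therefore called by number, and a comparison between the cell types assumes that a number stands for the same digest in both tables, and no header or label bears this out.

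The assay, HMST-Seq, sequences tags beside CCGG sites that were cut in separate digests. HpaII is blocked by methylation of the inner cytosine of CCGG, while its isoschizomer MspI cuts the methylated and the hydroxymethylated site too. A glucosyltransferase, for which the label BGT stands, adds glucose to hydroxymethylcytosine, and MspI then no longer cuts there. Unequal signals of a site in different digests are thus the raw material from which modification is read. Which modification an unequal pair stood for is not given here, because the digests of columns 7 and 8 are not named. Positions are those of the tables, without a matching genome or annotation, so no sequence beyond the CCGG of the site itself is shown, and no gene is named.

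The plot of the contrasts shows how the members were cut out. They lie at either end of the haploid ESC axis and in a narrow band of the sperm axis, in a cloud of sites centred near 0 in both cell types. The median contrast of all sites that passed the minimums was -0.0024 in haploid ESC and 0.0063 in sperm. Since the rule used these values, they are given as a description and without a test.

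**Figure D1:**
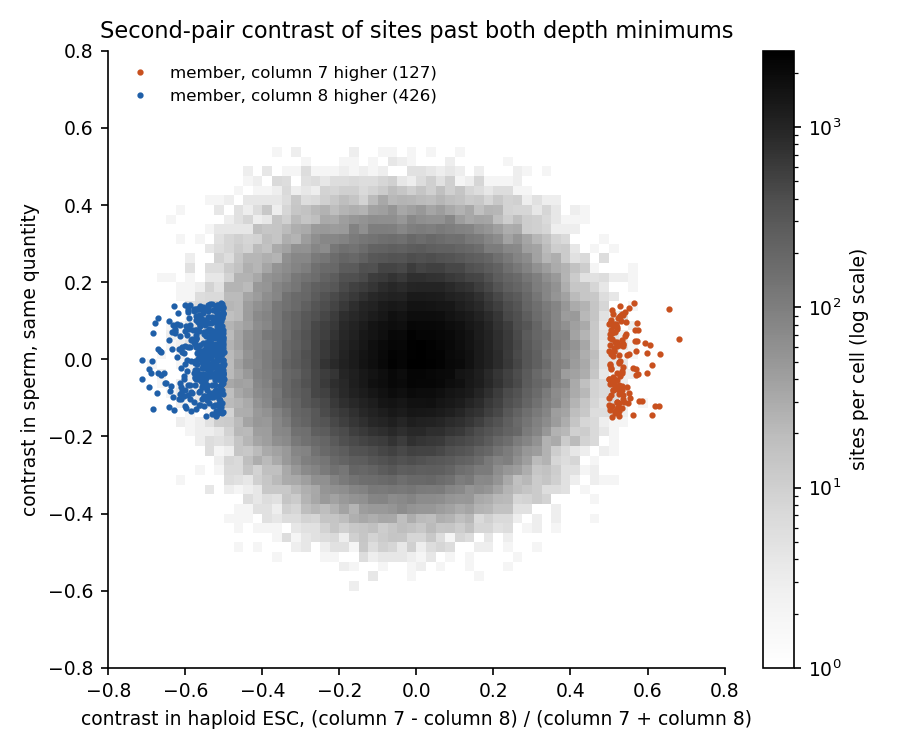
Contrast of the second pair in haploid ESC (horizontal axis, no unit) and in sperm (vertical axis, no unit), with grey shading for the number of sites per cell on a log scale and coloured points for the 553 members. The 426 members with column 8 higher extend to a contrast of -0.71 and the 127 with column 7 higher to 0.68, all within 0.15 of 0 on the sperm axis.

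Among sites with a contrast of 0.5 or more in haploid ESC, the higher value was in column 8 at 669 (0.133% of the sites that passed the minimums) and in column 7 at 194 (0.0387%), 0.172% in all. A contrast under 0.15 in sperm was the usual state of any site and was found at 72.4% of all that passed. That state held for 426 of the 669 sites (63.7%, 95% Wilson interval 60.0% to 67.2%) and for 127 of the 194 (65.5%, 58.5% to 71.8%). Of the remaining 243 or 67 sites, 1, with column 7 higher, had a contrast of 0.5 or more in the same direction in sperm. Over all sites that passed, such sperm contrasts were as rare as 0.0237% with column 8 higher and 0.0164% with column 7 higher. The low count is thus no result about these sites. Among those with column 8 higher in haploid ESC, 92 had a sperm contrast from 0.15 to 0.5 in the same direction and 149 one of that size in the opposite direction. Among those with column 7 higher the numbers were 37 and 28. The shares of all sites with sperm contrasts of that size in each direction were not counted, so these numbers are a description alone. Wilson intervals here and below reflect counting error alone, and sites close together are not independent. In sperm a contrast of 0.5 or more was rarer, at 119 sites with column 8 higher (0.0237%) and 82 with column 7 higher (0.0164%), 0.0401% in all.

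Members with column 8 higher stood at 38.1 to 287 in the sum of columns 7 and 8 in haploid ESC, with a median of 52.1. Their median signal was 12.1 in column 7 and 40.2 in column 8, where all sites that passed had 33.2 and 33.6. In sperm the same 426 sites had medians of 34.1 in column 7 and 33.8 in column 8, close to the 33.8 and 33.5 of all sites that passed. Members with column 7 higher had medians of 38.6 in column 7 and 11.8 in column 8 in haploid ESC. Their sperm medians, 23.1 and 24.2, were below those of all sites. The summed sperm signal exceeded the haploid ESC sum at 311 of the 426 members with column 8 higher (73.0%) and at 54 of the 127 with column 7 higher (42.5%), against 55.2% of all sites that passed. The kinds of member thus differed in their sperm signal as well as in their direction in haploid ESC.

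Column 3 took no part in the rule. Members with column 8 higher had a median column 3 signal of 37.7 in haploid ESC (lowest 1.58, highest 213) against 25.3 over all sites that passed. Column 3 exceeded that overall median at 301 of the 426 (70.7%, 66.2% to 74.8%). At members with column 7 higher it had a median of 27.5 and exceeded the overall median at 68 of 127 (53.5%, 44.9% to 62.0%), so their interval includes an even split.

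In sperm the order of the kinds was the opposite. At the members with column 8 higher the sperm median of column 3 was 18.5, below the 21.2 of all sites that passed, and 190 of 426 members (44.6%, 39.9% to 49.3%) lay above that level. For the members with column 7 higher it was 26.3, and 75 of 127 (59.1%, 50.4% to 67.2%) lay above it. The reference matters here. A narrower reference was the sites with haploid ESC sums in the middle quartiles of the members with column 8 higher. Their column 3 medians were 21.5 in haploid ESC and 17.3 in sperm. The members had the higher median in both tables, in sperm by little. There 43.1% of such sites lay above the sperm median of all sites that passed, a share inside the interval of the members. The same reference for the members with column 7 higher had medians of 21.3 and 17.2, again below those of the members.

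The columns' order shows where the low value sat. At members with column 8 higher, column 3 of haploid ESC lay above column 7 at 383 of 426 sites (89.9%, 86.7% to 92.4%), where 33.8% of all sites that passed had that order. The low value of column 7 is fixed by the rule and raises this share, so no test was made of it. Column 3 lay above column 8, the high member of the pair, at 154 of 426 (36.2%), close to the 33.2% of all sites. The median of the log2 ratio of column 3 to column 8 was -0.31 at these members and -0.52 over all sites that passed, and that of column 3 to column 7 was 1.52 and -0.52. Column 3 was nearer to column 8 than to column 7 at the typical member of this kind. The low column 7 set by the rule favours this too, so it is a description alone. At members with column 7 higher the median log2 ratio of column 3 was 1.15 to column 8 and -0.62 to column 7.

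**Figure D2:**
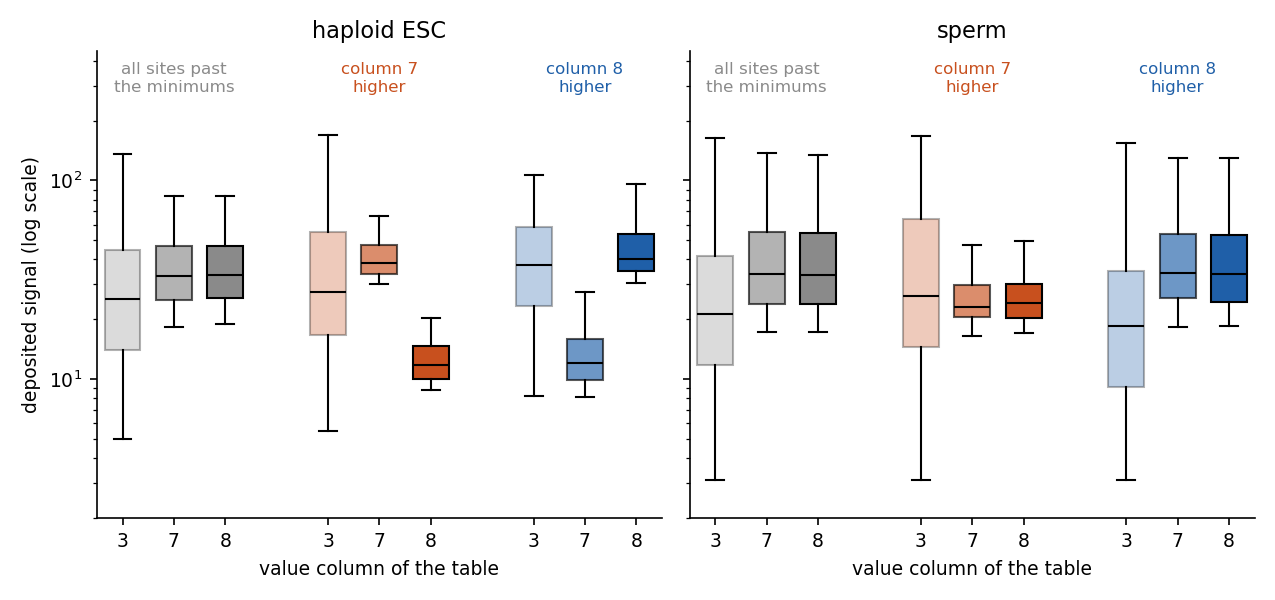
Deposited signal (log scale) of columns 3, 7 and 8 in haploid ESC and in sperm, for all 501527 sites past the minimums, for the 127 members with column 7 higher and for the 426 with column 8 higher. Boxes span the middle quartiles with a line at the median and whiskers reach the 5% and 95% points. In haploid ESC column 3 of the members with column 8 higher (median 37.7) lies near column 8 (40.2) and above column 7 (12.1), whose low value is set by the rule.

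The level of column 3 followed the size of the contrast in the column 8 direction. Among sites with a contrast under 0.15 in sperm, its haploid ESC median was 24.8 at contrasts between -0.15 and 0, 25.6 from -0.3 to -0.15, 28.1 from -0.4 to -0.3, 31.0 from -0.5 to -0.4 and 37.7 at the members. In the column 7 direction the same medians ran from 24.7 to 27.5. The sperm medians of the classes on the column 8 side changed in the other direction, from 20.5 to 18.5. The summed signal of the pair did not rise with column 3: its haploid ESC median fell from 69.1 in the class nearest 0 to 52.1 at the members with column 8 higher. Members with column 8 higher had a column 3 median of 36.2 where another site lay within 200 bp and of 39.5 where none lay within 1000 bp, against 28.0 and 21.7 for all sites that passed in those settings. The part of depth or spacing in these levels was not tested.

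**Figure D3:**
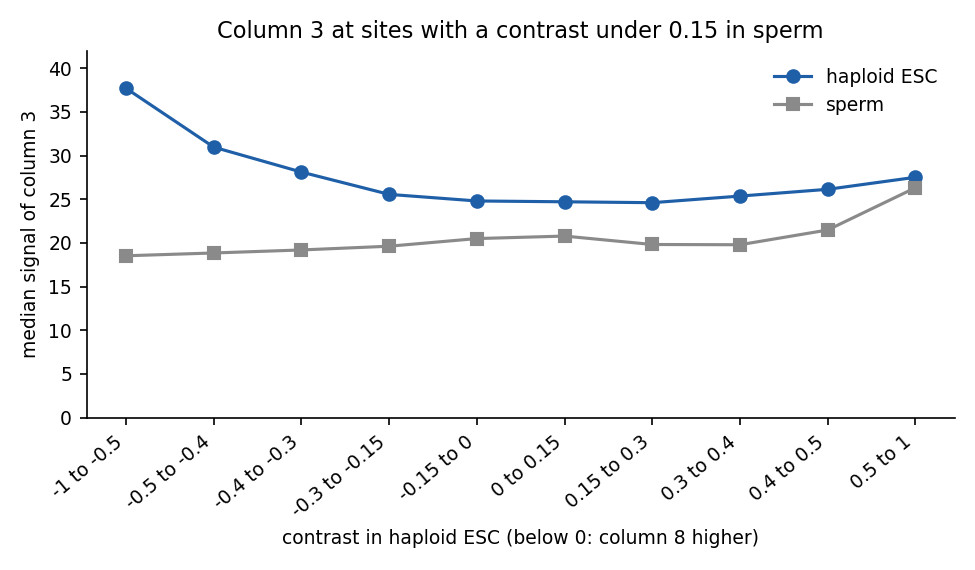
Median signal of column 3 (vertical axis) in haploid ESC and in sperm, in classes of the haploid ESC contrast (horizontal axis, no unit), over sites with a contrast under 0.15 in sperm. The haploid ESC points rise toward the members with column 8 higher, to 37.7, while the sperm points there are at 18.5.

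The authors' deposited tables also hold, for each pair, the p-value of a test that the labels do not name, and its adjusted value. A call was an adjusted value below 0.05. The adjusted values of the second pair reach 1.03, so a call there is a cut on a score and implies no error rate. The authors' deposited table of haploid ESC called the second pair at all 553 members, and at 17.5% of all sites that passed, which the rule brings about. Its adjusted values at members with column 8 higher ran from 2.2e-56 to 0.00019, and at those with column 7 higher from 1.5e-16 to 0.0016. In sperm the authors' deposited table called the second pair at 12 members with column 8 higher (2.82%) and 1 with column 7 higher (0.79%), against 15.5% of all sites that passed. These 13 sites were thus called in the sperm table too, although their contrast there was under 0.15. Low shares called in sperm, here and below 0.001, are also brought about by the rule, which limited the sperm contrast. Below 0.001 the authors' deposited tables called 426 members with column 8 higher and 125 with column 7 higher in haploid ESC (2.59% of all sites), and 0 in sperm (3.6% of all sites), where the lowest adjusted value of a member was 0.0037. For the first pair, which shares the values of column 7, the authors' deposited table of haploid ESC called 355 of 426 members with column 8 higher (83.3%) and 105 of 127 with column 7 higher (82.7%), against 76.7% of all sites. The rule set column 7 low or high at the members in haploid ESC, so these shares are not free of it and are a description. A call also gives no direction. Column 3 of haploid ESC lay above column 7 at 89.9% of members with column 8 higher and 33.9% of those with column 7 higher, against 33.8% of all sites. The first pair of sperm was called in the authors' deposited table at 354 (83.1%) and 95 (74.8%), against 82.3%. Sites called in a table are not thereby shown to differ between the cell types.

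The members with the highest summed signal are described singly, with no error known for any of their values. The strongest with column 8 higher lay at position 1991146 of chromosome 15, where columns 3, 7 and 8 of haploid ESC held 96.8, 59.5 and 228, and those of sperm 26.0, 316 and 285. Here column 7 was the lowest in haploid ESC and column 3 the lowest in sperm. At position 83156293 of chromosome 7 the 3 values were 26.2, 43.7 and 149 in haploid ESC and 24.8, 263 and 233 in sperm. At position 169470756 of chromosome 4 they were 43.3, 45.4 and 143 in haploid ESC and 16.0, 353 and 365 in sperm. At both of these sites column 3 of haploid ESC did not exceed column 7, unlike at most members of the kind. At position 187880838 of chromosome 1 the values were 89.9, 48.4 and 151 in haploid ESC and 102, 149 and 113 in sperm, whose second pair was called in the authors' deposited table (adjusted value 0.0096). At position 5220166 of chromosome 1 they were 77.6, 43.7 and 134 in haploid ESC and 8.91, 49.2 and 37.7 in sperm. At these 5 sites column 8 was the highest in haploid ESC, while columns 3 and 7 had no common order. In sperm column 3 was the lowest at each. It was so at 65.9% of all sites that passed and at 71.8% of the members with column 8 higher.

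The 5 strongest sites with column 7 higher had lower sums than these. The median sums of the kinds in haploid ESC were close, 50.2 with column 7 higher and 52.1 with column 8 higher. The highest sum was at position 130239612 of chromosome 9, with 49.6, 113 and 30.6 in columns 3, 7 and 8 of haploid ESC and 32.5, 21.1 and 22.8 in sperm. Column 3 lay between the values of the pair in haploid ESC and above them in sperm. At position 70322239 of chromosome 4 the values were 12.03, 97.0 and 30.0 in haploid ESC and 29.3, 89.1 and 102 in sperm, so column 3 was the lowest in both. At position 77885571 of chromosome 16 they were 43.7, 79.1 and 25.9 in haploid ESC and 36.2, 21.2 and 22.2 in sperm, and at position 129641645 of chromosome 8 they were 44.5, 79.1 and 24.9, and 47.6, 25.6 and 23.4. Position 8414367 of chromosome 14 had the highest column 3 of the 5, with 168, 70.7 and 23.0 in haploid ESC and 239, 28.1 and 21.7 in sperm. There column 3 was the highest in both tables.

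The limits of the rule cut through a continuous range. Just inside a contrast of 0.5 were sites at -0.5002 and 0.5004, and just outside were sites at -0.4999 and 0.4983. The sites nearest the sperm limit had contrasts of -0.149 inside and 0.151 outside. The sites nearest the depth minimum had sums of 38.062 inside and 38.052 outside in haploid ESC, and of 33.53 and 33.43 in sperm. The largest contrasts were -0.71 at position 104838386 of chromosome 2 (5.91 in column 7 and 35.4 in column 8) and 0.68 at position 12289888 of chromosome 8 (50.5 and 9.59).

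Members were commonest where the summed signal was low. With the sites divided into 10 classes of equal size by their sum in haploid ESC, the lowest class held the most: 92 of 50153 (18.3 per 10000) were members with column 8 higher and 30 (5.98 per 10000) were members with column 7 higher. In the highest class these numbers were 17 (3.39 per 10000) and 1 (0.20 per 10000). Members with column 8 higher outnumbered the others in each of the 10 classes: above the median sum there were 120 members with column 8 higher and 26 with column 7 higher, a ratio of 4.62, and below it 306 and 101, a ratio of 3.03. The part of counting noise in the members was not tested.

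The directions also differed in the spacing of sites. Members with column 8 higher lay in crowded places, with a median of 214 bp to the nearest shared site against 547 bp for all sites that passed. Another site lay within 200 bp of 201 of the 426 (47.2%, 42.5% to 51.9%), against 25.8% of all sites. At least 2 sites lay within 500 bp of 182 of them (42.7%, 38.1% to 47.5%), against 19.6%. The median spacing of members with column 7 higher equalled that of all sites, 547 bp, and 23 of 127 (18.1%, 12.4% to 25.7%) had a site within 200 bp. Spacing was not used in the rule, but sites of a table share its libraries, so no test was made over sites.

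Counted per 10000 sites that passed, members with column 8 higher numbered 16.1 where the nearest site was over 100 and up to 200 bp away and 2.81 where it was over 2000 bp away. Members with column 7 higher numbered 1.25 and 1.91 in these classes and nowhere exceeded 3.63. The whole table leaned the same way, more weakly: the median contrast of haploid ESC was -0.025 in the class from 100 to 200 bp and 0.015 beyond 2000 bp. In sperm these medians were -0.0087 and 0.025. The crowding of members with column 8 higher thus went with a drift of the contrast over spacing that both tables showed, and the part of that drift in the members was not tested.

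**Figure D4:**
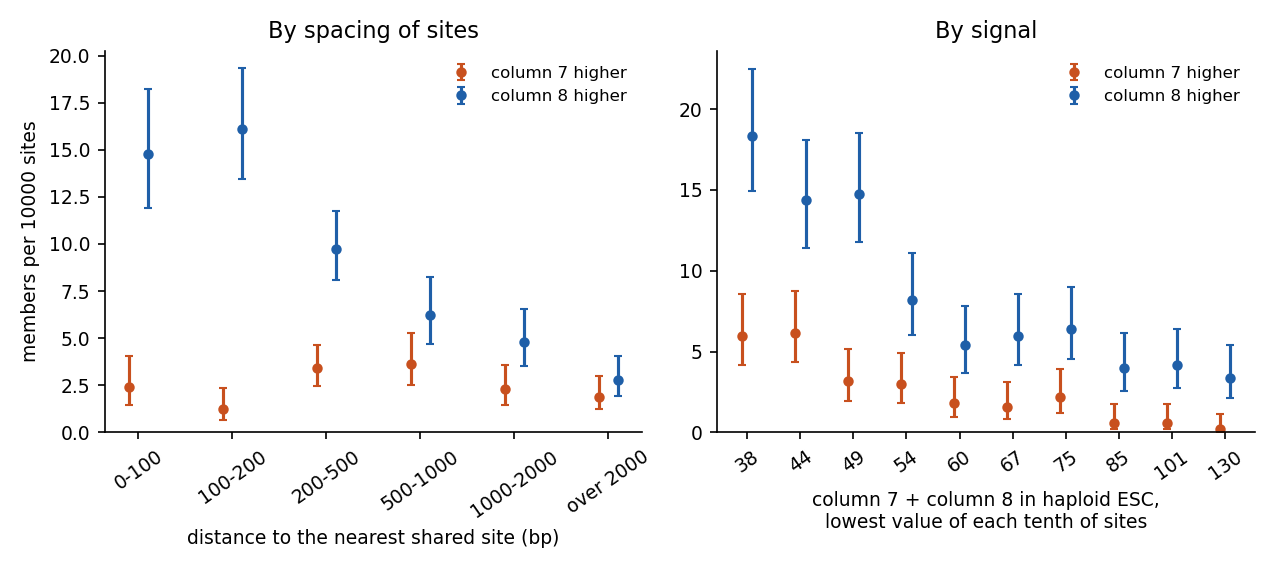
Members per 10000 sites past the minimums (vertical axis), by distance to the nearest shared site in bp (left) and by the sum of columns 7 and 8 in haploid ESC in 10 classes of equal size (right), with 95% Wilson intervals. Members with column 8 higher fall from 16.1 at 100 to 200 bp to 2.81 beyond 2000 bp, and both kinds are commonest at low sums.

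Signals of neighbouring sites were taken as a further description, from sites of any depth that were not members. Within 200 bp of members with column 8 higher there were 238 such neighbours, of which 176 (73.9%, 68.0% to 79.1%) had column 8 higher in haploid ESC as well. For the other sites that passed and had column 8 higher to any degree, this share was 59.2%. The neighbours had a median contrast of -0.13, and 43 of them (18.1%) reached 0.3 in the same direction, against 7.94% for the neighbours of other sites. The share was highest from 100 to 200 bp, at 116 of 149 (77.9%, 70.5% to 83.8%), was 63.0% from 200 to 500 bp, and from 500 to 1000 bp, at 53.7%, it was close to the 54.7% of other sites. In sperm 135 of the same 238 neighbours (56.7%) had column 8 higher, against 55.7% around other sites. From 200 to 500 bp, however, the sperm share was 224 of 354 (63.3%, 58.1% to 68.1%) against 55.3%, as large as the haploid ESC share at that distance.

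Close neighbours were few around members with column 7 higher. Of 24 within 200 bp, 15 (62.5%, 42.7% to 78.8%) had column 7 higher in haploid ESC, against 45.9% around other sites with column 7 higher, a value inside the interval. From 200 to 500 bp the share was 26 of 55 (47.3%). At this number of neighbours a lean of the size seen around members with column 8 higher was not distinguishable from none.

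The likeness of neighbours around sites with column 8 higher was greater at larger contrasts in haploid ESC, an order that the sperm table did not show in that direction. The difference between the tables was not tested. In haploid ESC, neighbours within 200 bp of sites with column 8 higher had that direction at 57.2% for contrasts under 0.15, 61.1% from 0.15 to 0.3, 67.3% from 0.3 to 0.5 and 73.4% from 0.5. In sperm the shares were 55.7%, 55.4%, 55.7% and 54.0% (34 of 63). Around sites with column 7 higher both tables showed a rising order, of 45.4%, 47.0%, 50.4% and 56.4% (22 of 39) in haploid ESC and 45.4%, 46.0%, 47.0% and 50% (12 of 24) in sperm, the last classes being thin. These neighbours carry the same contrast that chose the members, in the same libraries, and are a description of the haploid ESC table alone.

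**Figure D5:**
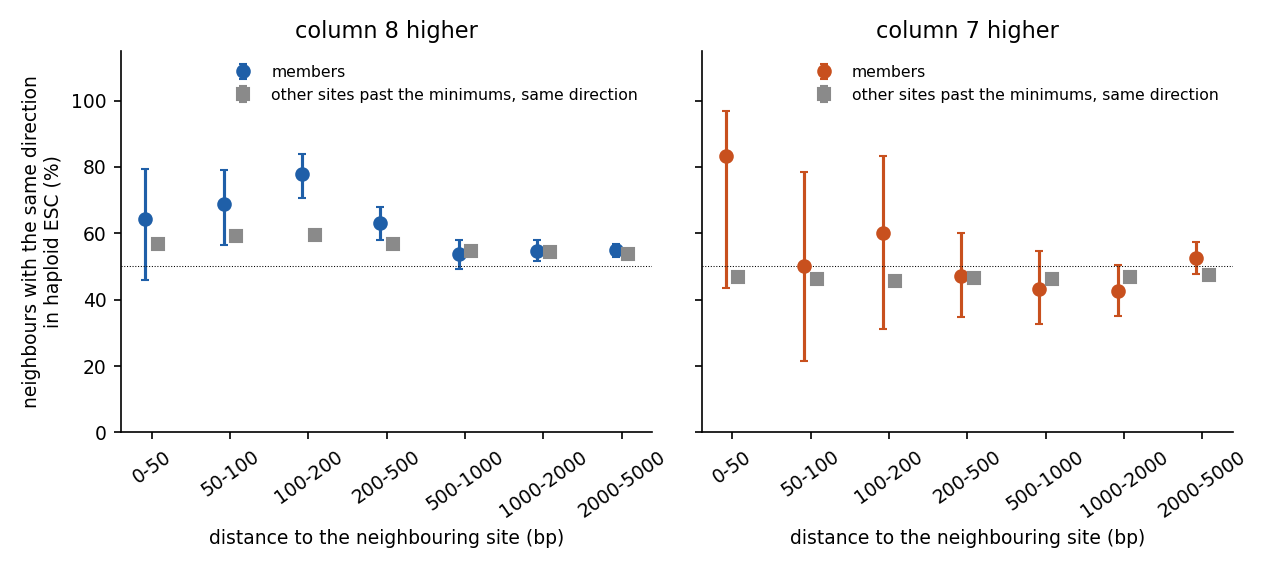
Share of neighbouring sites (vertical axis, percent) with the direction of the site they adjoin in haploid ESC, by distance in bp, around members and around other sites past the minimums with any contrast of that direction. Bars are 95% Wilson intervals. Around members with column 8 higher the share is 77.9% at 100 to 200 bp and 53.7% at 500 to 1000 bp.

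Even so, the members were mostly single sites. Of 553, 4 lay within 1000 bp of another of their direction, in pairs with column 8 higher. The first pair lay on chromosome 3 at 1409727 and 1409884. Columns 3, 7 and 8 of haploid ESC held 35.4, 8.22 and 34.2 at the first site and 24.4, 11.3 and 37.1 at the second, and those of sperm 9.03, 23.6 and 24.8, and 14.2, 37.1 and 34.2. The sites on either side, at 1409145 and 1410433, had haploid ESC contrasts of 0.17 and 0.17, so they did not share its direction. Their haploid ESC sums were 31.9 and 26.7, both under the minimum. The other pair lay on chromosome 12 at 97170115 and 97170729, with haploid ESC values of 41.3, 19.4 and 59.3, and 83.0, 31.6 and 96.4. Their sperm values were 28.1, 85.3 and 97.3, and 31.5, 186 and 148. The second pair of sperm was called at the second site in the authors' deposited table (adjusted value 0.017). A site 4 bp beyond the second had a contrast of -0.14 in both tables, and one at 97171141 a contrast of -0.37 in haploid ESC and 0.17 in sperm. The haploid ESC sum at 97171141 was 35.3, under the minimum.

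A neighbour within 500 bp with a contrast of 0.3 or more in the same direction was found for 83 of 426 members with column 8 higher and for 6 of 127 with column 7 higher. Over those that had any site within 500 bp, this was 26.8% of 310 (22.2% to 32.0%) and 9.84% of 61 (4.59% to 19.8%), against 12.9% and 7.20% of other sites with those directions. One member, chosen here after its values were seen, had 3 such neighbours: position 86385399 of chromosome 20, with 41.2, 9.86 and 43.6 in columns 3, 7 and 8 of haploid ESC and 149, 83.4 and 69.9 in sperm. Its neighbours at 86384971, 86385206 and 86385449 had haploid ESC contrasts of -0.62, -0.48 and -0.31 and sperm contrasts of 0.47, -0.18 and 0.21. Their haploid ESC sums were 19.7, 17.0 and 8.70, all under the minimum.

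By chromosome, members with column 8 higher ranged from 3.17 per 10000 sites that passed on chromosome 18 (4 members, 95% Wilson interval 1.23 to 8.16) to 13.7 on chromosome 10 (35 members, 9.82 to 19.0), around 8.49 over all. The intervals of these chromosomes do not overlap, but they are the extremes of 20 chromosomes. Members with column 7 higher ranged from 0.61 on chromosome 19 (1 member) to 5.51 on chromosome 12 (10 members), around 2.53. Chromosome ends held more of the members with column 8 higher: 107 of 426 (25.1%, 21.2% to 29.4%) lay within 5 Mb of the first or last shared site, against 14.7% of all sites that passed. For members with column 7 higher it was 15 of 127 (11.8%, 7.29% to 18.6%). Sites near the ends were also more crowded, with a median spacing of 233 bp against 666 bp elsewhere. Away from the ends, members with column 8 higher still had a median spacing of 240 bp.

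The mirrored set, sites with a contrast of 0.5 or more in sperm and under 0.15 in haploid ESC (a limit that 68.9% of all sites met), held 108 sites, 75 with column 8 higher and 33 with column 7 higher. Their median spacings were 253 and 324 bp, against 547 bp for all sites that passed. Another site lay within 200 bp of 26 of 75 (34.7%, 24.9% to 45.9%) and 10 of 33 (30.3%, 17.4% to 47.3%). Both intervals include the 25.8% of all sites. At least 2 sites lay within 500 bp of 28 of 75 (37.3%, 27.3% to 48.6%) and 9 of 33 (27.3%, 15.1% to 44.2%). The second of these intervals includes the 19.6% of all sites. Column 3 of sperm was high in both directions there, with medians of 101 and 99.5 against 21.2 over all sites. Column 3 of haploid ESC at the members had medians of 37.7 and 27.5 against 25.3. At the mirrored sites column 3 of haploid ESC had medians of 49.9 with column 8 higher and 30.5 with column 7 higher. A raised column 3 of haploid ESC was thus not particular to the members. Neighbours within 200 bp of the 75 sites had column 8 higher in sperm at 21 of 37 (56.8%, 40.9% to 71.3%). The share around the members with column 8 higher was 73.9% (68.0% to 79.1%). These intervals overlap, and the difference was not tested, since each table stands for 1 set of libraries. A contrast of 0.5 or more in both cell types was found at 4 sites, 1 in the same direction and 3 in opposite directions. Over all sites that passed, 0.172% had such a contrast in haploid ESC and 0.0401% in sperm, so a large overlap was not to be looked for.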

How the data were processed

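Reads of 50 bp from 1 end were taken from each of the 6 HMST-Seq libraries, per the labels' protocols. The authors deposited 1 table of 10 columns per cell type, with no header. Columns 3, 7 and 8 were read as signal, deposited as fractional values whose scaling, aligner, counting and filters no label or header used here states. The read depth behind them is unknown, and the sums of columns 7 and 8 stand in for it. Column 4 repeats column 7 and was not used in either table (2 columns). Each table was tied to its cell type by its name and the labels, and no column was tied to a digest. The deposited p-values and adjusted values are the authors' own. The last column was read as an adjusted p-value but is treated as a score, since the deposited values reach 1.03. The submitters' processing notes name a human build, so the build of the positions is not known.

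Tables were joined on chromosome and position, and the depth minimums were 38.1 in haploid ESC and 33.5 in sperm. With 1 library per digest and cell type no test between cell types was possible. Shares have 95% Wilson intervals. Sites named are, for each direction, the 5 members with the highest sum, all groups of members at most 1000 bp apart, and those nearest each limit. Outside that list, the member with the largest contrast in each direction is named. Sites beside the groups, and 1 member of chromosome 20 with its neighbours, are named as well. The members and lists were chosen with earlier results of these data known. The code for selection and neighbour counts was checked on simulated contrasts with planted members and neighbours. Their noise was far narrower than the spread of the real contrasts, so the check bears on the code alone. Python 3.11.15, pandas 2.3.3, numpy 2.4.6, SciPy 1.17.1 and matplotlib 3.10.9 were used.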

Additional observations from a re-analysis of the deposited data

Results flagged for a closer look

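Column 3 at members with column 8 higher pointed in opposite directions in the cell types when set against all sites past the minimums: the log2 ratio of the medians was 0.58 in haploid ESC and -0.19 in sperm. With 1 library per column the difference was not tested, and it assumes that column 3 stands for the same digest in both tables. The opposite direction depends on the reference. Against sites with similar haploid ESC sums, the column 3 median of these members was higher in both tables. It was 37.7 against 21.5 in haploid ESC and 18.5 against 17.3 in sperm. The sperm difference was small: 44.6% (39.9% to 49.3%) of these members and 43.1% of such sites lay above the sperm median of all sites that passed.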

How the results depend on the processing

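Of 68 alternatives to the 7 summary values, 45 of the 67 planned ones and the 1 added after the data were seen left the value within 1.5 times (counts) or within its 95% Wilson interval (shares). Among the 7 values is the share of members called in the second pair of haploid ESC, which the rule brings about. Its alternatives, at 99.6% to 100%, are counted among those left unchanged and say nothing of stability. Column 8 was the higher one at most members under each of the 9 changes of the rule, with a share of members with column 7 higher from 10% to 35.4% (23.0% as reported). The counts depend on the limits. With the depth minimum at the lower quartile there were 687 members with column 7 higher and 1253 with column 8 higher (35.4% with column 7 higher), 0.72% of members were called in sperm and 64.6% of neighbours shared their direction. At the upper quartile these values were 13, 117, 10%, 9.23% and 82.1%. The shares of neighbours pool both directions, whose mix changes with the minimum. A contrast of 0.4 gave 1077 and 2441 members (30.6%), and one of 0.6 gave 8 and 58 (12.1%) with 0% in groups of members. A sperm limit of 0.10 or 0.20 moved the share called in sperm from 2.35% to 0.98% or 5.77%, and a call below 0.001 to 0%. Adding 1 to both values left 77 members with column 7 higher. Over 1000 bp in place of 200 bp, 59.5% of neighbours shared the direction of their member, against 72.9%. Leaving out replicates was not possible, since the libraries of a cell type are different digests. The read depth behind the sums is unknown.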

Other observations

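The X chromosome was outside the rule. Of 41585 shared X sites, 9752 passed the same minimums, and 3 of these met the limits on both contrasts, all with column 8 higher. That is 3.08 per 10000 (95% Wilson interval 1.05 to 9.04), and the autosomal 8.49 lies inside the interval.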
